A study of Mus musculus with 9 samples.

Results

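The promoters of the proteasome subunit genes were open at ordinary promoter levels in naive CD4+ T cells, and none of them passed the test between WT, Stat6_KO and Il21e_KO cells. The peaks were chosen from the deposited ATAC-seq table as those annotated at a transcription start site (TSS) and carrying a gene symbol that starts with Psma, Psmb, Psmc, Psmd, Psme, Psmf or Psmg and a digit. This gave 40 peaks for 40 genes, of 14608 TSS peaks and 115727 peaks in all, and 39 of the 40 held enough reads to be tested. The peak left out was that of Psma8, a core subunit of germ cells, with 11 reads over all 9 libraries and 0 to 2 in each. One of the 39, Psmc3ip, matches by its symbol only: it encodes a partner of meiotic recombinases and is no proteasome subunit.

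ATAC-seq marks open chromatin by cutting DNA with a transposase, here in untreated naive CD4+ T cells isolated ex vivo from C57BL/6 mice with a commercial naive cell kit. The 3 genotypes had 3 libraries each. WT mice served as controls, Stat6_KO mice lack STAT6, the transcription factor downstream of interleukin-4, and the genotype labelled Il21e KO appears as IL21KO in the sample titles. Which DNA either allele lacks, the age of the mice and whether a replicate number stands for a separate mouse are not given in the sources used here, so the p-values cover only spread between these libraries, which may be technical.

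The proteasome is the barrel-shaped protease that degrades proteins tagged with ubiquitin. Its 20S core stacks rings of alpha and beta subunits, and the catalytic beta subunits are encoded by Psmb5, Psmb6 and Psmb7. Lymphocytes and cells exposed to interferon gamma replace these by Psmb8, Psmb9 and Psmb10, respectively, to form the immunoproteasome, which is known for producing peptides for MHC class I. The 19S cap (the ATPases and other Psmc and Psmd products) unfolds the substrate, while the Psme products are alternative caps that activate the core.

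Of the catalytic genes, Psmb6, Psmb7, Psmb8 and Psmb10 had a peak under their own name. On the mm9 genome of the table these lie at chr11:70338439-70339164 (Psmb6), chr2:38498954-38499927 (Psmb7), chr17:34334387-34335596 (Psmb8) and chr8:108460760-108462426 (Psmb10). The table names 1 gene per peak, and the starts of 7 further subunit genes fell within a TSS peak carrying a neighbour's name. The Psmb9 start lies 226 bp from that of Tap1, a subunit of the peptide transporter of antigen presentation, on the other strand, so that the peak labelled Tap1 at chr17:34323748-34325509 covers both genes. The Psmb5 start fell in a peak labelled with the microRNA gene Mir686, at chr14:55236218-55237289, 1210 bp from the Mir686 start. The other 5 were Psma2 (labelled Mrpl32), Psma4 (AY074887), Psmc2 (Dnajc2), Psmc5 (Ftsj3) and Psmd13 (Sirt3). For Psma4, Psmb5, Psmb9 and Psmd13 the match rests on distances between starts in the RefSeq annotation of GRCm38. These 7 peaks are given beside the members and are not counted among them; no such peak was matched for Psmc1 or the thymus form Psmb11. In the opposite case, 4 member peaks also hold the start of a gene on the other strand: Ss18l1 beside Psma7 (18 bp), Atg4a beside Psmd10 (205 bp), Cep76 beside Psmg2 (262 bp) and Rnf31 beside Psme2 (641 bp). Reads in such shared peaks cannot be divided between the genes.

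The 250 bases before the start of each immunoproteasome gene and of 2 constitutive counterparts are shown because the study removed a STAT factor and these promoters carry different short elements. They come from RefSeq, with positions on GRCm38.p6, and are written from 5′ to 3′ on the strand of the gene. Capitals mark the matches described after them.
Psmb8 (chr17:34197945-34198194, plus strand): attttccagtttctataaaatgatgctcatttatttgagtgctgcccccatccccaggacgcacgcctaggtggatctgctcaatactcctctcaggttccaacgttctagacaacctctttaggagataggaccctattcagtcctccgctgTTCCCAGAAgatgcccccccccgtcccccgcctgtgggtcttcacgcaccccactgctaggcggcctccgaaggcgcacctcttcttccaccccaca
Psmb9 (chr17:34187331-34187580, minus strand): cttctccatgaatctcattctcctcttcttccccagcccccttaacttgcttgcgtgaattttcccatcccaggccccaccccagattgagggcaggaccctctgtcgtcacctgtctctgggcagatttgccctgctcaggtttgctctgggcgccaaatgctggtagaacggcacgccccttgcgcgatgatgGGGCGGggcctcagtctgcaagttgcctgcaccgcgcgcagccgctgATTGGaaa
Psmb10 (chr8:105938393-105938642, minus strand): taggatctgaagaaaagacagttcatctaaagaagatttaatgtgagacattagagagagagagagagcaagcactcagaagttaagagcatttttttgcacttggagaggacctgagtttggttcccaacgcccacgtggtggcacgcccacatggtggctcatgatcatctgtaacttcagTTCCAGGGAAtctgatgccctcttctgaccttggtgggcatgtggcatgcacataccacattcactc
Psmb5 (chr14:54617996-54618245, minus strand): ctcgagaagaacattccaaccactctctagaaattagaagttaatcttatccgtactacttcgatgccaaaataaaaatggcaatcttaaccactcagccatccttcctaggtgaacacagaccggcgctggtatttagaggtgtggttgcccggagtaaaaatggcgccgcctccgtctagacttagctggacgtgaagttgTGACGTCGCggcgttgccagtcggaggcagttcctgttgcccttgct
Psmb6 (chr11:70525107-70525356, plus strand): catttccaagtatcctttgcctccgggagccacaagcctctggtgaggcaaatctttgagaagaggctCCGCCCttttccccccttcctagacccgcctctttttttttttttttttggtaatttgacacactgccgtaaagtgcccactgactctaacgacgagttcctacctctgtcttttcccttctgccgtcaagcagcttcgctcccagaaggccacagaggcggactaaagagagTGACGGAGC

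In these letters Psmb8 carried 1 STAT element (TTCNNNGAA), at bases -97 to -89 counted from the start, and Psmb10 carried 1 element with the wider spacing that STAT6 prefers, at -67 to -58. Psmb9 carried a GC box (GGGCGG, -55 to -50) and a CCAAT box (CCAAT, -8 to -4), the latter read on the other strand. Psmb5 and Psmb6 each carried the core of the antioxidant response element (TGACNNNGC), at -47 to -39 and -9 to -1. Nrf1 encoded by Nfe2l1, the factor that raises proteasome genes when proteasomes are inhibited, binds such cores. Psmb6 also held a GC box, on the other strand, at -182 to -177. A match describes letters and shows no binding, and each search covered both strands of windows from 250 bases before to 50 after the start.

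Among 34 such windows of 32 member genes (8 had none in the table), the median held 18.5 CpG dinucleotides and 59% G or C. The 32851 windows of all genes had a median of 7 CpG and 52.7%. The ETS core CCGGAA occurred in 16 member windows (47.1%) against 14.9% of all windows, and the GC box in 20 (58.8%) against 35.7%. The CCAAT box was found in 29.4% against 37.4%, and the Nrf1 site, the palindrome of the unrelated nuclear respiratory factor, in 11.8% against 4.60%. The antioxidant core stood in 14.7% of member windows against 12.4%, and the interferon response element in 14.7% (Psmb3, Psmd4, Psmd9, Psme1 and Psmg4) against 3.44%. STAT elements occurred in 8.82% (Psmb8, Psmd2 and Psmg1) against 8.30%, and the STAT6-spaced form in 2.94% (Psmb10) against 6.95%. CpG-rich promoters hold GC-rich motifs more often, and the windows were not matched for base composition. Psmb10 and a window of Psma6 were at the lower end of the family with 3 CpG, and 31.4% of all windows had 3 or fewer. Psma7 was at the upper end with 41, while Psmb8 had 11, Psmb6 15, Psmb9 17 and Psmb5 20.

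Levels of different promoters were compared in CPM (reads scaled to a common total of reads in peaks) per kb of peak, since peaks differ in length. In bulk ATAC-seq fewer cells with an open site and less cutting per cell cannot be told apart. In WT cells the 39 tested members had a median of 22.9 CPM per kb, with quartiles of 19.7 and 26.3. All 11905 tested TSS peaks had a median of 23.0, with quartiles of 19.2 and 26.7. The most open promoter was that of Psmb10, the trypsin-like site of the immunoproteasome, at 32.3 ± 2.86 CPM per kb (SD, n = 3), higher than 95.9% of tested TSS peaks. Psmb8, its chymotrypsin-like site, came second at 29.6 ± 5.67. The nuclear activator Psme3 followed at 29.5 ± 4.00 and the interferon-induced activator Psme1 at 28.5 ± 4.00. The SDs of these 4 overlap, so their order is not resolved.

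**Figure D1:**
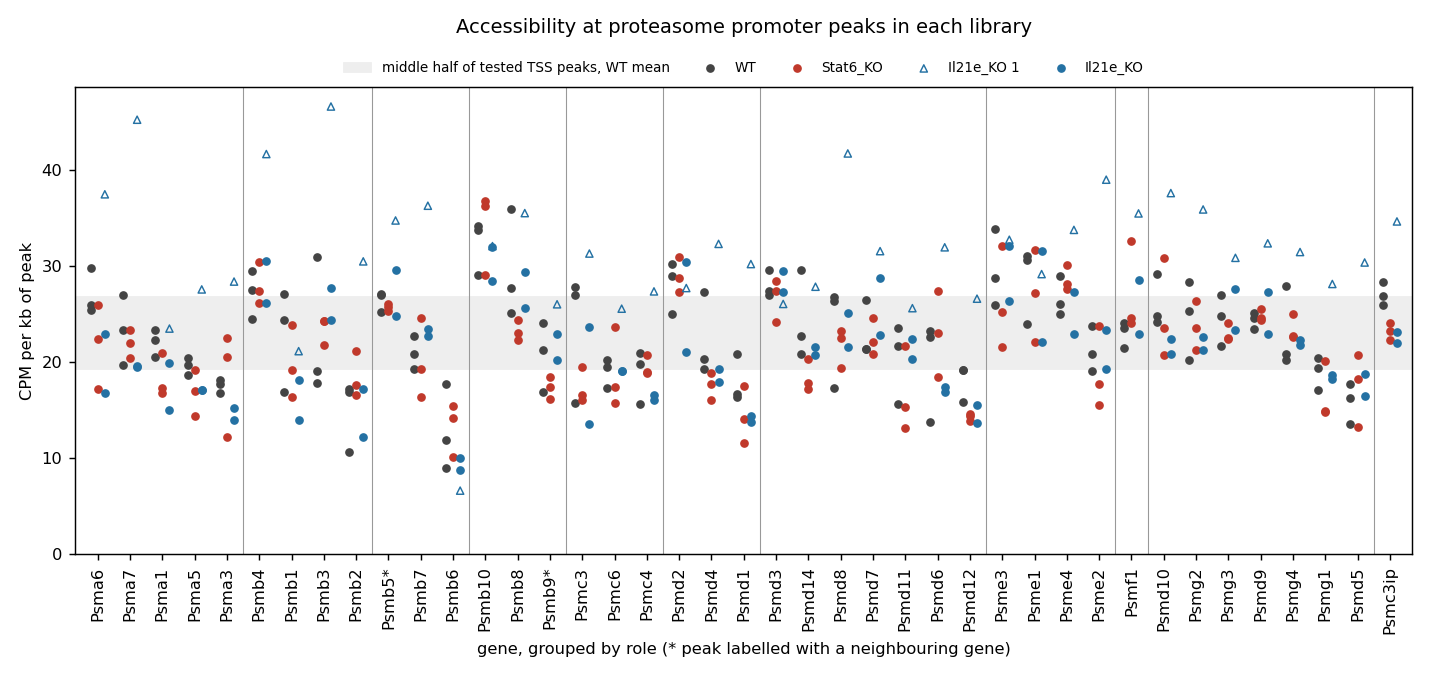
Accessibility (CPM per kb of peak, vertical axis) of the 39 tested proteasome promoter peaks and the peaks shared by Psmb5 and Psmb9, grouped by role and ordered by WT mean; each point is 1 library and the open triangle is Il21e_KO 1. The grey band spans the quartiles of all tested TSS peaks in WT (19.2 to 26.7), Psmb10 lies above it in every library, Psmb6 lies below it, and the triangle is the highest point for 30 of the 39 members.

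The least open tested promoter was that of Psmb6, the constitutive caspase-like site, at 12.8 ± 4.50 CPM per kb, which is higher than 4.69% of tested TSS peaks. Next came Psmb2, a structural beta subunit, at 14.9 ± 3.74, and Psmd5, an assembly chaperone of the cap, at 15.8 ± 2.12. Psmb7, the constitutive trypsin-like site, had 20.9 ± 1.71. The peak holding the Psmb5 start had 26.4 ± 1.08 and that shared by Psmb9 and Tap1 had 20.7 ± 3.60. Psmb10 thus lay above Psmb7 by more than their SDs, whereas Psmb8 and Psmb5, and the shared Psmb9 peak and Psmb6, overlapped within theirs. These SDs ignore that both peaks are read in the same libraries. Taken within each WT library, the log2 ratio per kb was 0.73 ± 0.26 for Psmb9 over Psmb6. It was 0.63 ± 0.17 for Psmb10 over Psmb7 and 0.15 ± 0.33 for Psmb8 over Psmb5 (SD, n = 3).

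By role, the median WT level per kb ran from 30.9 for the 2 immunoproteasome genes with their own peak and 27.5 for the 4 activators to 16.8 for Psmb6 and Psmb7. The alpha ring had 22.0 (5 genes, from Psma3 at 17.5 ± 0.663 to Psma6 at 27.0 ± 2.43). The structural beta subunits had 22.7 (4 genes, from Psmb2 to Psmb4 at 27.1 ± 2.54). In the cap, the ATPases had 19.0 (3 genes, from Psmc4 at 18.8 ± 2.77 to Psmc3 at 23.5 ± 6.72). The other base subunits had 22.3 (3 genes, from Psmd1 at 17.9 ± 2.50 to Psmd2 at 28.0 ± 2.71), and the lid had 23.0 (7 genes, from Psmd12 at 18.0 ± 1.89 to Psmd3 at 27.9 ± 1.40). The assembly chaperones had 24.3 (7 genes, from Psmd5 to Psmd10 at 26.0 ± 2.74), and the inhibitor Psmf1 had 22.9 ± 1.38. The lowest activator was Psme2, the partner of Psme1, at 21.1 ± 2.37. Every role except the catalytic ones thus had its median inside or within 1 CPM per kb of the quartiles of all TSS peaks. The catalytic medians rest on 2 genes each, because Psmb5 and Psmb9 have no peak under their own name. The peaks holding those starts had 26.4 (Psmb5) and 20.7 (Psmb9), both inside the quartiles. The exception therefore depends on which genes carry their own label.

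The tested members were 725 to 1835 bp long, with a median of 1067 bp against 1164 bp for tested TSS peaks. All 39 held the start of the transcript listed for them, with a median of 474 bp before and 531 bp after it. The Psmb10 peak was placed differently: it began 133 bp before the start and reached 1533 bp into the gene, so that 92.0% of it lay downstream, against a median of 52.6% for the members. Of the tested TSS peaks with the start inside, 1.48% had as large a share downstream. The Psmb10 transcript spans 2665 bp in the table and in RefSeq, and 117 of the 250 bases shown for it lie outside the peak; its STAT6-spaced element lies inside. Psmb3, a structural beta subunit, was the opposite case, with 18.8% of its peak downstream.

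Depth and library quality bear on every comparison that follows. The libraries held 1049460 to 1802405 reads in peaks, so that 1 read equalled 0.555 to 0.953 CPM, and the tested members had 5 to 106 reads per library, with a median of 37. Il21e_KO 1 stood apart: it was the shallowest, had no read in 23.5% of all peaks, and placed 42.7% of its reads in TSS peaks against 31.6% to 36.4% in the other libraries. The 8 markers of naive CD4 T cells all had a TSS peak with reads in every library, summing to 199.5 to 262 CPM. Those of B cells summed to 6.73 to 26.4 CPM (3 of 4 with reads in every library), of NK cells to 6.23 to 14.98 (2 of 3) and of red cells to 14.2 to 23.9 (1 of 3). For myeloid cells the sum was 40.4 to 56.8 (2 of 4) and for CD8 T cells 30.0 to 40.5 (1 of 2). The sums run over lists of different length, so they cannot be compared between cell types and do not measure purity. The part of other cells in the results was not tested. The 3 peaks assigned to Stat6 did not lose their reads together in Stat6_KO: the promoter had 107 to 113 against 88 to 137 in WT, exon 12 had 3 to 5 against 9 to 19, and exon 16 had 25 to 41 against 9 to 17. The 6 peaks in Il21 held 0 to 5 reads per library in every genotype and check nothing.

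The library that deviated most at the proteasome promoters was Il21e_KO 1. It had the highest CPM of the 9 libraries at 30 of the 39 members (76.9%), against 54.9% of tested TSS peaks. Its ratio to the median of the other 8 libraries had a median of 1.48 over the members and 1.28 over the tested TSS peaks. It was highest for Psma7, an alpha subunit, at 2.14, and lowest for Psmb6 at 0.599. On the log2 scale its members had a median of 0.46 above the WT mean, with 34 of 39 above it. The other Il21e_KO libraries had medians of -0.17 and -0.12, with 11 and 13 of 39 above. Within WT the medians ran from -0.13 (WT 3) to 0.10 (WT 1), and within Stat6_KO from -0.16 to -0.03. Chi-square per degree of freedom of the reads within genotypes had a median of 1.15 over the members, and of 0.753 without Il21e_KO 1, against 1.33 and 0.787 over tested TSS peaks. It reached 6.43 for Psma7, and without that library its highest value was 2.40, for the ATPase gene Psmc3.

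**Figure D2:**
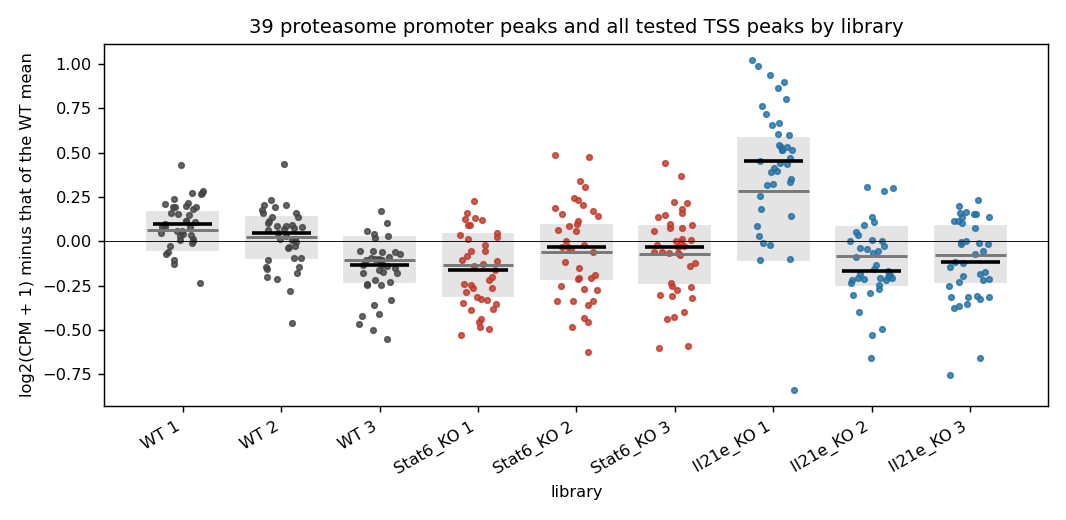
Difference of log2(CPM + 1) from the WT mean (vertical axis) in each library (horizontal axis) for the 39 tested members; points are members, the black bar is their median, and the grey box and grey bar are the quartiles and median of all tested TSS peaks. Il21e_KO 1 has a member median of 0.46 with Psmb6 far below it, whereas the other 8 libraries have medians between -0.17 and 0.10.

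Among the immunoproteasome genes, Psmb8 had 43.4, 33.5 and 30.3 CPM in WT 1 to 3, 27.8, 29.4 and 26.9 in Stat6_KO and 42.9, 30.9 and 35.5 in Il21e_KO. The Stat6_KO values were all below those of the other genotypes, but WT 3 lay close to the highest of them. Psmb10 had 56.9, 48.3 and 56.1 CPM in WT, 60.2, 48.3 and 61.2 in Stat6_KO, and 53.4, 47.3 and 53.3 in Il21e_KO. Its 3 groups overlapped, and Il21e_KO 1 did not stand out at it. The peak of Psmb9 and Tap1 had 42.2, 37.4 and 29.7 in WT, 28.4, 32.4 and 30.6 in Stat6_KO and 45.7, 40.3 and 35.5 in Il21e_KO. Stat6_KO and Il21e_KO were separated there, and both overlapped WT.

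Among the constitutive genes, Psmb6 had 12.9, 8.56 and 6.45 CPM in WT, 10.2, 11.2 and 7.34 in Stat6_KO and 4.76, 6.30 and 7.21 in Il21e_KO. These are the smallest counts among the 39 tested members, from 5 reads in Il21e_KO 1 to 21 in WT 1, and of the 39 members Psmb6 alone had its lowest value in Il21e_KO 1. Psmb7 had 22.0, 20.2 and 18.7 in WT, 18.8, 15.9 and 23.9 in Stat6_KO and 35.3, 22.1 and 22.7 in Il21e_KO. All Il21e_KO values were above all WT values, though 2 of them by less than 1 CPM. The peak holding the Psmb5 start had 26.9, 28.8 and 29.0 in WT, 27.8, 27.1 and 27.5 in Stat6_KO and 37.2, 26.5 and 31.6 in Il21e_KO, with all groups overlapping.

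Among the activators, Psme1 had 33.0, 33.5 and 25.8 CPM in WT, 23.9, 34.2 and 29.4 in Stat6_KO and 31.4, 34.0 and 23.9 in Il21e_KO. Psme2 had 43.4, 38.1 and 34.8 in WT, 28.4, 32.4 and 43.4 in Stat6_KO and 71.5, 35.3 and 42.7 in Il21e_KO. Both code for the cap that joins the immunoproteasome under interferon gamma, and only at Psme2 was Il21e_KO 1 far above the rest. Psme3 had 40.4, 34.3 and 31.0 in WT, 30.1, 38.3 and 25.7 in Stat6_KO and 39.1, 31.5 and 38.3 in Il21e_KO. Psme4, a nuclear cap active in germ cells and DNA repair, had 44.1, 39.7 and 38.0 in WT, 42.1, 45.9 and 42.8 in Stat6_KO and 51.5, 41.6 and 35.0 in Il21e_KO. The genotypes overlapped at all 4 activators.

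Stat6_KO against WT tests whether these promoters depend on STAT6 in resting cells. No member passed limma-trend at a false discovery rate (FDR) of 0.05, and edgeR, DESeq2 and limma-voom called none either. The background was 0.0104% of all 48287 tested peaks called. At an unadjusted p under 0.05 there were 0 of 39 members, against 3.11% of tested TSS peaks. Of the members 14 had a positive and 25 a negative log2 fold change (64.1% negative, against 67.1% of tested TSS peaks). The median was -0.07 for the members and -0.08 for tested TSS peaks, with a median standard error (SE) of 0.22 per member. In 5 members (Psmb8, Psmd4, Psmd12, Psmd14 and Psmc3ip) each Stat6_KO library lay below each WT library, as in 10.7% of tested TSS peaks, and in none did they lie above (3.26%). When libraries were scaled to their reads in TSS peaks, 41.0% of the members were negative and their median was 0.01, against 49.3% and 0.0038 for tested TSS peaks. This scaling brings TSS peaks as a whole near 0, and the members are TSS peaks, so it is no independent check.

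The smallest p was that of Psmd14, the deubiquitinase of the lid, which had 29.4, 22.6 and 20.6 CPM in WT and 17.1, 17.7 and 20.2 in Stat6_KO. Its log2 fold change was -0.37 ± 0.20 (SE; 95% interval -0.79 to 0.04, adjusted p = 1, limma-trend), and -0.23 without WT 1. Psmb8 followed with -0.32 ± 0.18 (-0.70 to 0.06, adjusted p = 1, limma-trend); without WT 1 the difference was -0.18. Psmd4, a ubiquitin receptor, had 33.0, 23.4 and 24.5 CPM in WT, 22.7, 19.4 and 21.4 in Stat6_KO and a log2 fold change of -0.32 ± 0.22, which was -0.17 without WT 1. In the other direction stood Psmb2 (0.32 ± 0.28), the inhibitor Psmf1 (0.22 ± 0.20) and the lid subunit Psmd6 (0.22 ± 0.26). Psmb2 had 17.7, 10.9 and 17.4 CPM in WT and 18.2, 21.8 and 17.1 in Stat6_KO, so that the groups overlapped, and gave 0.10 without WT 2. Psmf1 had 23.9, 23.4 and 21.3 in WT and 24.4, 32.4 and 23.9 in Stat6_KO, and gave 0.079 without Stat6_KO 2. Psmd6 had 20.8, 20.2 and 12.2 in WT and 16.5, 20.6 and 24.5 in Stat6_KO, and its sign turned (-0.02) without WT 3. The 2 genes with a STAT-type element in the sequences shown gave -0.32 (Psmb8) and 0.07 ± 0.15 (Psmb10, interval -0.24 to 0.37), of which neither passed. Psmd2 and Psmg1, whose windows also held a STAT element, gave 0.05 ± 0.18 and -0.19 ± 0.22 and did not pass either.

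**Figure D3:**
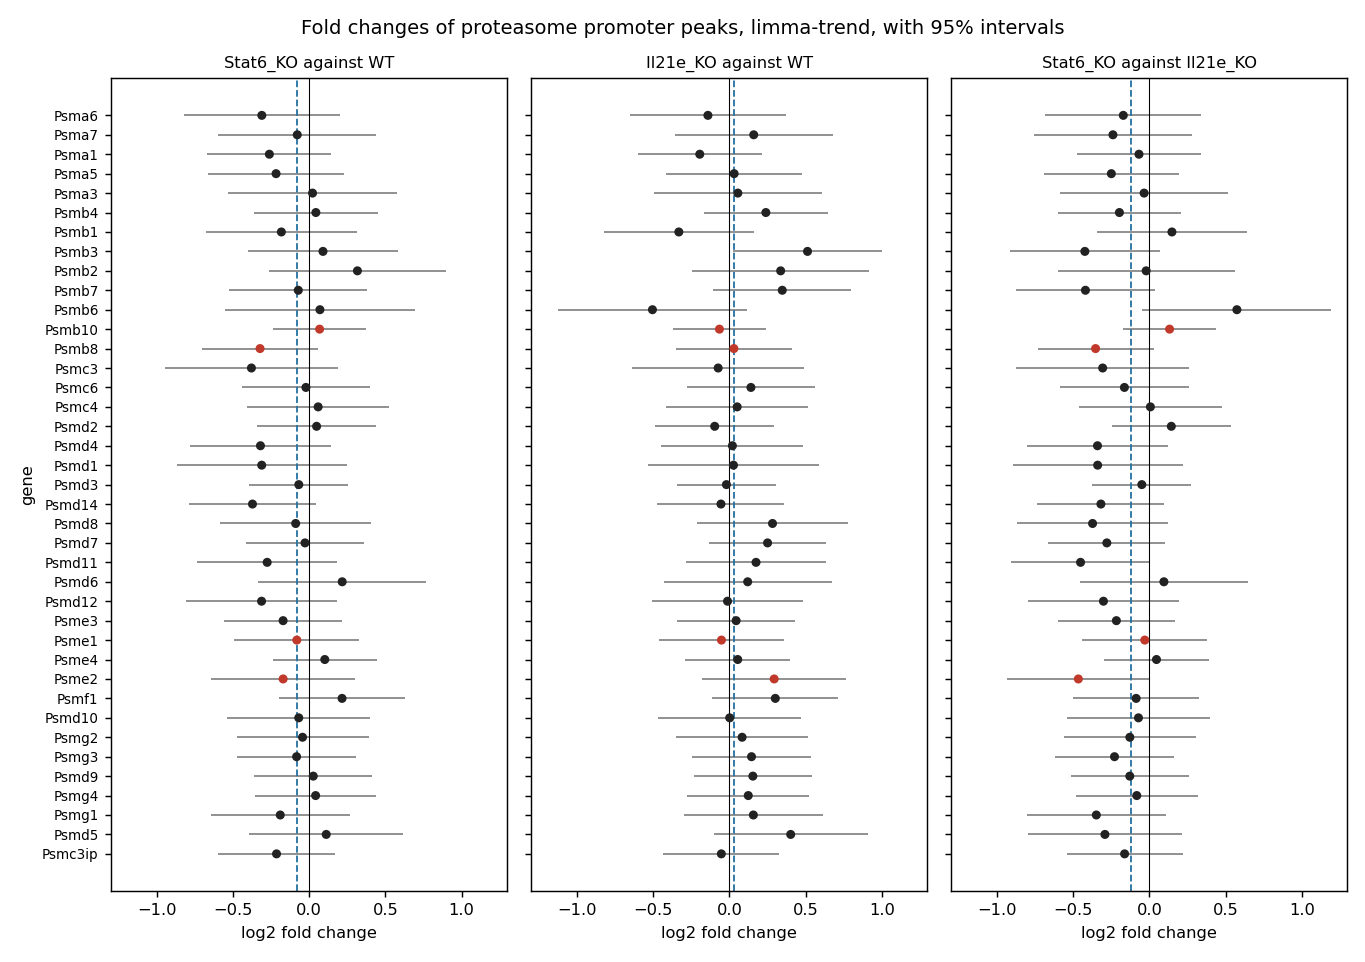
Log2 fold change (horizontal axis) of the 39 tested members (vertical axis, by role) in the 3 comparisons, with 95% intervals from limma-trend; red points are Psmb8, Psmb10, Psme1 and Psme2 and the dashed line is the median of all tested TSS peaks. Only the interval of Psmb3 in Il21e_KO against WT leaves out 0, and its adjusted p is 1.00.

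Il21e_KO against WT tests the same promoters for the Il21e allele. Again limma-trend, edgeR, DESeq2 and limma-voom called no member, with 0% of all tested peaks called by limma-trend. At an unadjusted p under 0.05 there was 1 member of 39, against 2.44% of tested TSS peaks. The median log2 fold change was 0.06 over the members and 0.03 over tested TSS peaks, with 27 members positive and 12 negative (30.8% negative, against 42.8%). This direction rested on Il21e_KO 1: without it 13 were positive and 26 negative, with a median of -0.09, and tested TSS peaks had -0.07. Scaling to TSS reads left 46.2% of the members negative and a median of 0.01, or 56.4% and -0.02 without Il21e_KO 1. Tested TSS peaks then had 52.7% negative and a median of -0.013, or 48.9% and 0.0057. In 1 member (Psmb7) all Il21e_KO libraries lay above WT (2.55% of tested TSS peaks), and in none below (2.63%).

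Psmb3 had the smallest p, with 26.9, 43.6 and 25.2 CPM in WT and 65.7, 39.1 and 34.4 in Il21e_KO. Its log2 fold change was 0.51 ± 0.23 (0.02 to 1.00, adjusted p = 1.00, limma-trend), and 0.24 without Il21e_KO 1. Psmd5 had 18.4, 14.01 and 16.8 in WT and 31.4, 17.0 and 19.4 in Il21e_KO, a log2 fold change of 0.40 ± 0.24 that was 0.15 without Il21e_KO 1. Psmb7 gave 0.35 ± 0.22, and 0.14 without that library. On the other side Psmb6 gave -0.50 ± 0.29 (-1.13 to 0.12), with -0.36 without Il21e_KO 1 and -0.27 without WT 1. Psmb1, a structural beta subunit, had 20.8, 18.7 and 12.9 CPM in WT and 16.2, 10.7 and 13.9 in Il21e_KO (-0.33 ± 0.23, and -0.52 to -0.18 when single libraries were left out, the extremes being without WT 3 and without Il21e_KO 2). The alpha subunit Psma1 had 29.4, 28.0 and 25.8 in WT and 29.5, 18.9 and 24.97 in Il21e_KO (-0.19 ± 0.19, -0.34 without Il21e_KO 1 and -0.027 without Il21e_KO 2). The immunoproteasome genes gave 0.03 ± 0.18 (Psmb8, -0.09 without Il21e_KO 1 and 0.18 without WT 1) and -0.06 ± 0.15 (Psmb10).

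Both knockouts were set against the same WT libraries, and the direct comparison of Stat6_KO with Il21e_KO shares its libraries with both. It called no member by any of the 4 tools, against 0.0104% of all tested peaks by limma-trend, and the adjusted p of the members ran from 0.780 to 0.995. None had an unadjusted p under 0.05, against 6.59% of tested TSS peaks. Of the members 7 were positive and 32 negative (82.1% negative, against 69.7% of tested TSS peaks), with a median of -0.17 against -0.12. Without Il21e_KO 1 they were 19 positive and 20 negative with a median of -0.01. Under scaling to TSS reads 56.4% were negative and the median was -0.04, against 48.3% and 0.011 for tested TSS peaks. That scaling moved the median of all tested peaks from 0.04 to 0.16.

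In that direct comparison, 3 members (Psmb3, Psmb8 and Psmd14) had all Stat6_KO libraries below all Il21e_KO libraries (7.72% of tested TSS peaks) and 1 (Psmb6) had them above (2.60%). Psme2 gave -0.47 ± 0.22 (-0.94 to 0.0045), and -0.18 without Il21e_KO 1. The lid subunit Psmd11 had 17.1, 24.1 and 14.7 CPM in Stat6_KO and 28.6, 22.7 and 24.97 in Il21e_KO (-0.45 ± 0.22). Psmb8 gave -0.35 ± 0.18, and -0.23 without Il21e_KO 1, whereas Psmb6 gave 0.57 ± 0.29 and 0.43 without it. Psmb10 gave 0.13 ± 0.15, and the base subunit Psmd2 gave 0.14 ± 0.18 (-0.0048 without Il21e_KO 2), with 26.7, 25.3 and 28.8 CPM in Stat6_KO and 25.7, 19.5 and 28.3 in Il21e_KO.

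To compare immunoproteasome and constitutive genes within a library, the log2(CPM + 1) of the constitutive gene was subtracted from that of the gene replacing it, which cancels most of the library's scaling. These differences are not per length, so they compare genotypes and not genes. Psmb10 minus Psmb7 was 1.36 ± 0.16 (SD, n = 3) in WT, 1.5 ± 0.16 in Stat6_KO and 0.95 ± 0.32 in Il21e_KO. Psmb9 minus Psmb6 was 1.90 ± 0.22, 1.59 ± 0.29 and 2.56 ± 0.44 in the same order, and Psmb8 minus Psmb5 was 0.31 ± 0.32, 0.03 ± 0.08 and 0.19 ± 0.03. Il21e_KO was separated from both other genotypes for the first 2 pairs, in opposite directions: below them for Psmb10 and Psmb7 and above them for Psmb9 and Psmb6. The gaps to WT were narrow. For Psmb10 minus Psmb7, Il21e_KO 3 had 1.19 and WT 2 had 1.21, and for Psmb9 minus Psmb6, Il21e_KO 3 had 2.15 and WT 3 had 2.04. For Psmb8 minus Psmb5 only Stat6_KO and Il21e_KO were separated, Stat6_KO being lower by a mean difference of -0.16. There Stat6_KO 2 had 0.12 and Il21e_KO 3 had 0.16. How often pairs of other peaks are separated was not tested.

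With 3 against 3 libraries the exact 2-sided permutation test cannot go below p = 0.1, and none of the 9 comparisons passed (adjusted p from 0.18 to 0.8 over the 9). For Psmb10 minus Psmb7, Il21e_KO differed from WT by -0.41, and by -0.23 without Il21e_KO 1. For Psmb9 minus Psmb6 the difference was 0.66, and 0.43 without Il21e_KO 1, where Psmb6 had 5 reads. Stat6_KO differed from WT by 0.14 for Psmb10 minus Psmb7, by -0.31 for Psmb9 minus Psmb6 and by -0.29 for Psmb8 minus Psmb5, of which the last was -0.11 without WT 1. When single libraries were left out the first ran from 0.067 (without WT 2) to 0.23 (without Stat6_KO 3) and the second from -0.47 (without Stat6_KO 3) to -0.21. Per kb of peak the immunoproteasome gene was the higher one in 8 of 9 libraries for Psmb10 over Psmb7, with Il21e_KO 1 as the exception, in 9 of 9 for Psmb9 over Psmb6 and in 4 of 9 for Psmb8 over Psmb5.

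**Figure D4:**
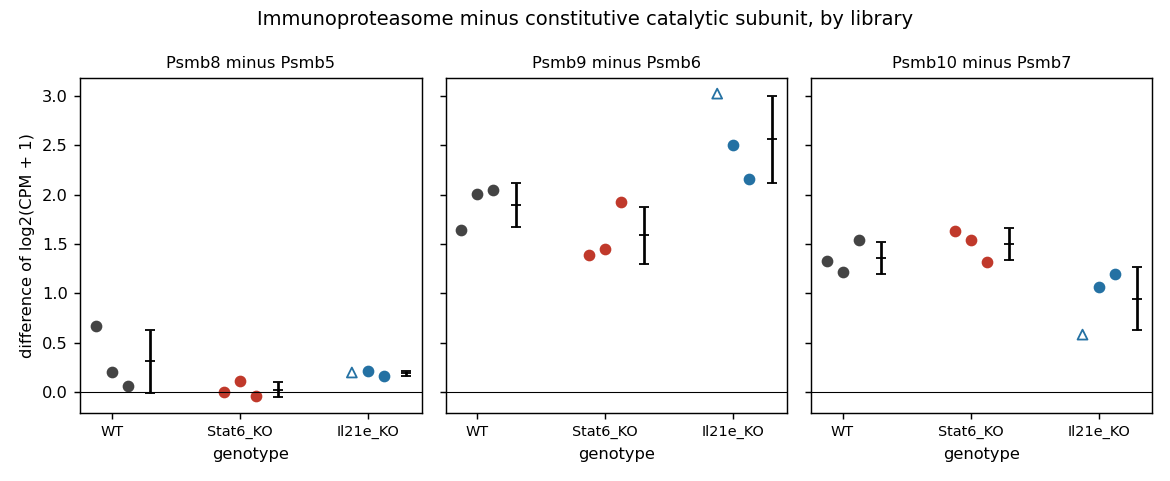
Difference of log2(CPM + 1) between each immunoproteasome gene and its constitutive counterpart (vertical axis) by genotype (horizontal axis); points are libraries, the open triangle is Il21e_KO 1 and the bar is the mean with SD (n = 3). Psmb9 and Psmb5 are read from peaks labelled with neighbouring genes; Il21e_KO lies above the other genotypes for Psmb9 minus Psmb6 and below them for Psmb10 minus Psmb7, where in both pairs Il21e_KO 1 is the most extreme library.

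The 7 subunit starts within peaks named after a neighbour were all tested and none was called. In Stat6_KO against WT all 7 were negative (67.1% of tested TSS peaks), with a median of -0.24 (-0.08), and 2 had an unadjusted p under 0.05 (3.11%). Only Psmb5 and Psmb9 of the 7 were recomputed under other settings, and scaling to TSS reads turned Psmb5 to 0.048. The rest were not recomputed, so how far they rest on scaling or on Il21e_KO 1 was not tested. In Il21e_KO against WT 5 were positive and 2 negative (median 0.15), with none under 0.05 (2.44%). In Stat6_KO against Il21e_KO all 7 were negative (69.7%), with a median of -0.35 (-0.12), and 3 were under 0.05 (6.59%): Psma2, Psmc5 and the peak shared by Psmb9 and Tap1, at -0.40 ± 0.17 and -0.31 without Il21e_KO 1. Psma2, an alpha subunit, had 17.7, 19.5 and 17.4 CPM in WT, 11.4, 12.95 and 13.5 in Stat6_KO and 21.9, 17.6 and 16.6 in Il21e_KO. Its Stat6_KO values were below all others, with a log2 fold change against WT of -0.50 ± 0.20 (adjusted p = 1, limma-trend). The ATPase gene Psmc2 had 34.9, 38.9 and 28.4 in WT and 21.6, 26.5 and 26.9 in Stat6_KO (-0.43 ± 0.19). Psmc5, another ATPase gene, had 18.8, 25.9 and 31.2 in Stat6_KO and 61.0, 34.0 and 31.6 in Il21e_KO, of which the first is Il21e_KO 1 (-0.68 ± 0.23, adjusted p = 0.780, limma-trend).

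Away from their start sites, 17 member genes had 52 further peaks, of which 10 in 8 genes were tested and none was called. The broadest lay at chr12:56489015-56491153 on mm9, in intron 1 of a longer Psma6 transcript and 3806 bp after its start, upstream of the later Psma6 start that the promoter peak holds. It stood at 56.6 ± 6.01 CPM in WT, 57.0 ± 5.25 in Stat6_KO and 53.2 ± 4.31 in Il21e_KO (SD, n = 3). A peak in intron 4 of the chaperone gene Psmg1 had 24.5 ± 4.47, 25.4 ± 6.08 and 24.9 ± 4.69 in the same order, so that both sites were alike in the 3 genotypes within their SDs. In intron 4 of Psmb7 the level was 3.87 ± 2.01 CPM in WT, 8.25 ± 0.507 in Stat6_KO and 3.98 ± 1.80 in Il21e_KO. The log2 fold change against WT was 1.03 ± 0.44 (adjusted p = 1, limma-trend). This peak passed the count filter through its Stat6_KO libraries, so the filter itself favours a rise there and no change is read from it. A peak at the end of Psme3 gave 0.88 ± 0.38. Of the 10 tested peaks 6 were positive and 4 negative in Stat6_KO against WT. These 2 had an unadjusted p under 0.05 by limma-trend, as had 1591 of all 48287 tested peaks.

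Other genes of the pathway were read from lists chosen with earlier results of these data known. Assembly factors, regulators and ubiquitin receptors of the proteasome gave 23 tested TSS peaks of 21 genes, none of them called. In Stat6_KO against WT 8 were positive and 15 negative (median -0.07), and in Il21e_KO against WT 12 and 11 (median 0.01). Stat6_KO against Il21e_KO had 3 positive and 20 negative, with a median of -0.08. Of tested TSS peaks 67.1%, 42.8% and 69.7% were negative in these comparisons, with medians of -0.08, 0.03 and -0.12. Pomp, the chaperone that completes the core, had 39.1 CPM in WT, 37.9 in Stat6_KO and 35.8 in Il21e_KO on average. Nfe2l2, which encodes the antioxidant regulator NRF2, had 75.4, 64.3 and 81.2. Of the antigen-processing genes, which share interferon control with the immunoproteasome, 7 had a tested TSS peak and none was called. These 7 include the Tap1 peak shared with Psmb9, which is also counted among the neighbour-labelled peaks above. In Stat6_KO 6 of the 7 were negative against WT, with a median of -0.25, where 67.1% of tested TSS peaks were negative with a median of -0.08. In Il21e_KO against WT 4 were positive and 3 negative, with a median of 0.13. All 7 were negative in Stat6_KO against Il21e_KO, with a median of -0.27. Neither list was counted again without Il21e_KO 1. Erap1, the peptidase that trims peptides for MHC class I, had 40.9 CPM in WT and 29.9 in Stat6_KO (-0.44 ± 0.18, adjusted p = 1, limma-trend).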

How the data were processed

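Values come from 1 deposited table of 115727 peaks by 9 ATAC-seq libraries. The authors deposited CPM, scaled per library to its reads in all listed peaks. The submitters' processing notes name Bowtie 1.3.0, MACS2 2.0, HOMER and the mm9 genome without their settings; duplicate removal, transposase shift and peak merging are not given in the sources used here. The gene headers are shifted and were read by content. All values were whole multiples of 1 read within 0.01 read (100% of values), so whole reads were recovered.

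Peaks were filtered with filterByExpr of edgeR 4.0.16 on these reads (minimum count 10, minimum total 15; 67440 peaks set aside) and tested on log2(CPM + 1) by limma-trend, using limma 3.58.1 in R 4.3.3. One model held the 9 libraries, and p-values were adjusted by the Benjamini-Hochberg method over the 48287 tested peaks (FDR 0.05). Fold changes are on this scale, which understates those of low peaks. Intervals are 95% intervals of the fit. The procedure was run on simulated counts with known changes. Their recovery is not reported here, so the run does not show what size of change could be missed. Alternatives were edgeR and DESeq2 1.42.0 on the recovered reads, limma-voom, other scalings, pseudocounts and filters, a replicate block and leaving out each library. Scaling to TSS reads without Il21e_KO 1, and the use of neighbour-labelled peaks for Psmb5 and Psmb9, were chosen after seeing the data.

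Values in every library are given for the catalytic subunits, the activators and, in each comparison, the 3 members with the smallest p in each direction; Psma2, Psmc2, Psmc5, Erap1 and the peaks away from start sites were named after their values were seen. The members, gene lists and tests were chosen with earlier results of these data known. Peak coordinates are those of the table (mm9); RefSeq tables of GRCm38.p6 gave sequences, neighbours and distances only. Groups follow the genotype labels, and counting error is the only error that depth covers.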

Additional observations from a re-analysis of the deposited data

How the results depend on the processing

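Under 23 alternatives per comparison (scaling, filter, pseudocount, test, groups in the fit, a replicate block and leaving out libraries) the number of called members was 0 in every comparison, as with the settings reported. Of 943 alternative values for 41 named fold changes, 907 kept their sign and 36 turned it, none beyond 0.14 in size, and the smallest adjusted p over all of them was 0.375; the cause of the turns was not tested. With DESeq2 size factors Psme1 in Il21e_KO against WT was 0.00061. Under scaling to TSS reads, Stat6_KO against WT gave 0.012 for Psmb7, 0.0039 for Psme1 and 0.048 for Psmb5, Il21e_KO against WT gave -0.017 for Psmb8 and -0.0019 for Psme3, and Stat6_KO against Il21e_KO gave 0.10 for Psme1. Cyclic loess gave -0.0078 for Psmb6 and 0.036 for Psmb5 in Stat6_KO against WT, and 0.076 for Psme1 in Stat6_KO against Il21e_KO. TSS scaling without Il21e_KO 1, chosen after seeing the data, gave 0.012 for Psmb7, 0.0039 for Psme1 and 0.048 for Psmb5 in Stat6_KO against WT, -0.014 for Psmb8 and -0.0090 for Psme4 in Il21e_KO against WT, and 0.025 for Psme1 in Stat6_KO against Il21e_KO.

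Leaving out 1 library at a time, signs turned for Psmb10 (-0.0065 to 0.18), Psmb6 (-0.14 to 0.31), Psmb7 (-0.22 to 0.058), Psmd6 (-0.017 to 0.36) and Psme1 (-0.20 to 0.050) in Stat6_KO against WT. They turned for Psmb8 (-0.091 to 0.18), Psme1 (-0.17 to 0.095), Psme3 (-0.041 to 0.15) and Psme4 (-0.086 to 0.19) in Il21e_KO against WT. In Stat6_KO against Il21e_KO they turned for Psmd2 (-0.0048 to 0.25), Psme1 (-0.18 to 0.10) and Psme4 (-0.085 to 0.19). Psmb8 minus Psmb5 in Il21e_KO against WT ran from -0.25 to 0.057 and turned without WT 1. Correlations of same-numbered libraries between genotypes ran from -0.19 to 0.25, and those of differently numbered ones from -0.30 to 0.24. With 3 libraries per genotype these values cannot decide whether replicate numbers pair the libraries. With the replicate number as a block 0 members were called in each comparison. With 5 to 106 reads per member and library and a median SE of 0.22, small differences could not be resolved.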
